A study of Mus musculus with 16 samples.

Results

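The genes described here encode ribosomal proteins and translation factors that carried Dazl coverage in mouse GC-1 spg cells. They are 29 of the 3203 genes with coverage in the series, taken by name: 14 proteins of the large ribosomal subunit, 5 of the small subunit and 10 factors of initiation, elongation or termination. A gene was counted by the span given for it in RefSeq, and its value was the coverage summed over all its regions.

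GC-1 spg is a cell line derived from mouse spermatogonia, and every library came from 1 monoclonal derivative in which doxycycline induces Dazl. A pulsed ultraviolet laser linked Dazl to RNA inside the cells, and the linked RNA was isolated and sequenced (KIN-CLIP, a form of iCLIP with set crosslinking times). The 12 libraries analysed here cover every combination of 4.2x and 1x Dazl, 2.6 and 1 mW of laser power, and 30, 180 and 680 s of crosslinking, with 1 library per combination and no replicates. The series also has 4 samples of 0 s, not analysed here, and coverage without crosslinking is thus unknown.

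Ribosomes read mRNA with a small and a large subunit, each built of rRNA and ribosomal proteins. Initiation factors place the small subunit at the start codon, elongation factors deliver aminoacyl-tRNA and move the ribosome along, and a release factor ends the chain. Dazl is an RNA-binding protein of germ cells known to bind 3′ untranslated regions and to act on translation. Many ribosomal protein genes also carry small nucleolar RNAs (snoRNAs), which guide the modification of rRNA, inside their introns.

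The values are the authors' normalized coverage, whole numbers per position, here summed over positions. Library totals lay between 11271 and 252932, and the 29 genes held between 0.967% and 1.255% of each total. Of the cell type markers, 1 of 11 germ cell genes (Sall4), 2 of 5 Sertoli cell genes (Wt1 and Dhh), 1 of 3 endothelial genes (Kdr) and none of 5 Leydig cell or 3 macrophage genes had a region. Dazl's own gene had none, so the label of induction could not be checked on these values. The values of different libraries are tied to each other: at 2.6 mW and 4.2x Dazl none of 8338 regions was lower at 680 s than at 30 s, and 45.49% were equal. The tests treat libraries as separate measurements, so their p-values may be off in either direction. Coverage depends on how much of an RNA the cells hold and on how often Dazl was linked to it. These cannot be told apart in bulk libraries, nor can fewer expressing cells and less RNA per cell.

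The 29 genes had 79 regions of listed coverage, of which 71 were exactly 17 nt wide. Large subunit genes had 34 regions, small subunit genes 19 and factors 26. Rps3, a protein at the mRNA entry of the small subunit, had the most regions, 11. The widest region, 79 nt, lay in Rplp0, the protein at the base of the ribosomal stalk, at 115563570 to 115563648 of chromosome 5 (mm10), 81 nt before the gene's 3′ end. Its value in the 2.6 mW and 4.2x libraries was 194, 203 and 258 at 30, 180 and 680 s.

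The strand of the gene was known for 62 of the 79 regions. Of these, 21 (33.87%) lay within 500 nt of the 3′ end, against 23.29% of 6153 regions in other genes. A further 7 (11.29%) lay within 500 nt of the 5′ end, against 4.68% in other genes. The spans differ: the median region lay in a gene of 5247 nt here and of 31663 nt in other genes, and short genes have more of their length near an end. Large subunit genes had 12 of 25 such regions near the 3′ end, and small subunit genes 4 of 19. All regions of Rpl22, Rpl37a and Rpl34 lay near the 3′ end, while both regions of Rps16 and the single region of Eif3c lay within 500 nt of the 5′ end. Exons and untranslated regions were not annotated, because the gene table used here holds spans only.

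**Figure D1:**
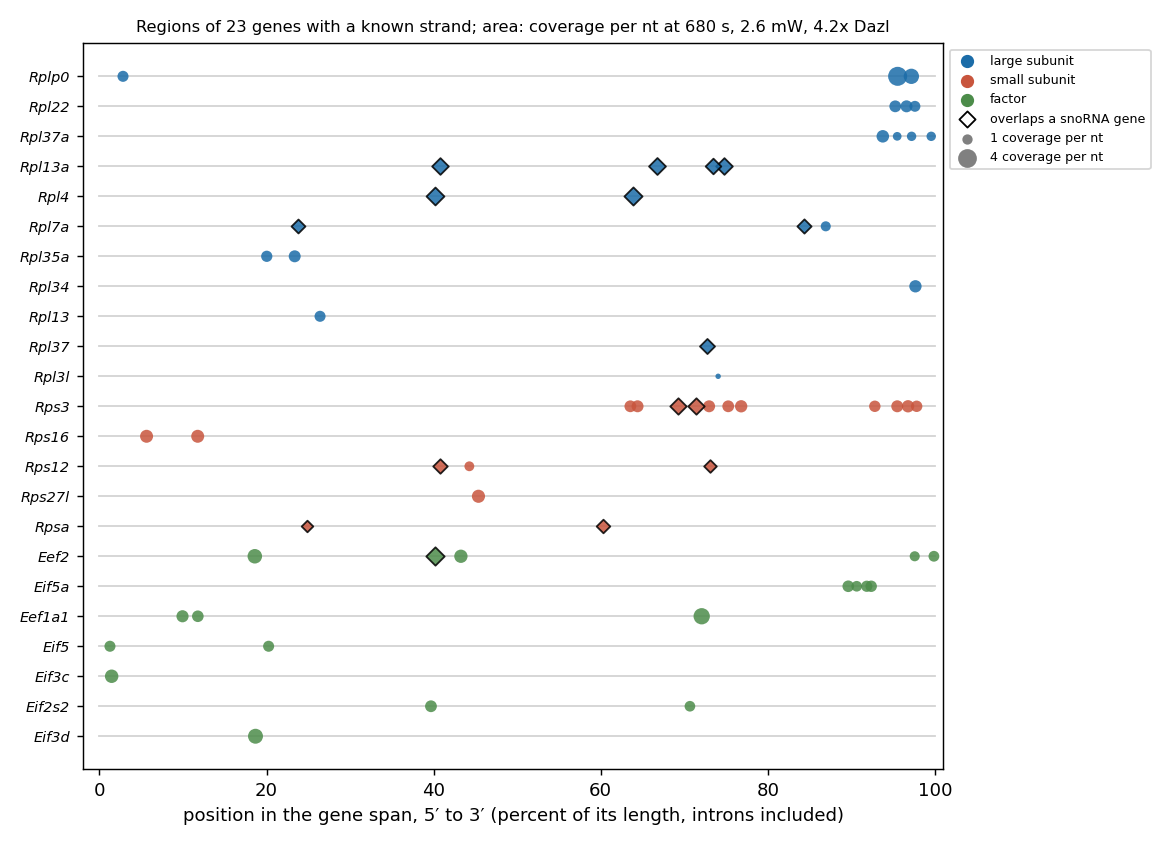
Place of each region along the span of the 23 genes with a known strand, 5′ at the left, as percent of the span with introns included. The area of a mark is coverage per nt at 680 s (2.6 mW, 4.2x Dazl), and diamonds with a black edge overlap a snoRNA gene. Regions of Rpl22, Rpl37a and Rpl34 crowd at the 3′ end, Rplp0 has regions near both ends, and diamonds stand inside the spans of 8 of the genes drawn.

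A snoRNA gene was overlapped by 20 of the 79 regions (25.316%). In all other genes together it was 12 of 7759 regions (0.155%). This background counts only regions that could be assigned to a gene. Outside the genes described here 24 regions overlapped a snoRNA, and those beyond the 12 were assigned to no gene. The background may thus be too low. Of all 8338 regions, assigned or not, 44 overlapped a snoRNA (0.528%). The hosts were 6 of the 14 large subunit genes, 3 of the 5 small subunit genes and 1 of the 10 factors. Every region of Rpl13a (Snord32a, Snord34 and Snord35a), Rpl4 (Snord16a and Gm23136), Rpl37 (Snord72) and Rpsa (Snora62 and LOC115485682) overlapped a snoRNA. Snord32a, Snord34 and Snord35a are C/D box snoRNAs, which guide methylation of rRNA. Without strand or read length, reads of a snoRNA and of the host transcript cannot be told apart, so the values of these 4 genes may be those of their snoRNAs.

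In 6 further hosts the snoRNA regions made up part of the value summed over the 12 libraries. That part was 77.16% in Rpl3 (Snord43 and Snord83b) and 70.32% in Rpl7a (Gm23969 and LOC115489588). It was 66.86% in Rpl23a (Snord42a) and 54.87% in Rps12 (Snord100 and LOC115487513). Snord15b gave 22.85% of Rps3, and Snord37 gave 11.56% of Eef2, the translocase of elongation. The 20 regions over a snoRNA had a median of 1.706 per nt at 680 s (2.6 mW, 4.2x), against 1.941 per nt in the 59 other regions of the 29 genes. Their ranges, 0.941 to 2.353 and 0.412 to 5.048 per nt, overlapped. At 30 s the 20 regions had a median of 91.67% of their own 680 s value there, against 75.19% in the 59 others. In the other 3 time courses this share was 42.45% against 37.93% (2.6 mW, 1x), 28.64% against 50.67% (1 mW, 4.2x) and 11.11% against 12.5% (1 mW, 1x), so its order was not the same in all of them.

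Among large subunit genes, Rplp0 had 293, 314 and 393 at 30, 180 and 680 s (2.6 mW, 4.2x Dazl), and 177, 155 and 328 (2.6 mW, 1x). Under weaker light it had 127, 71 and 230 (1 mW, 4.2x), and 13, 12 and 135 (1 mW, 1x). The 30 and 180 s libraries of 1 mW and 1x were the lowest, far below the others. Per listed nt Rplp0 averaged 1.60 over the 12 libraries and stood 28th among the 3203 genes, the highest of the 29.

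Rpl22, an RNA-binding protein of the large subunit, had 132, 118 and 169 at 30, 180 and 680 s (2.6 mW, 4.2x), 71, 80 and 128 (2.6 mW, 1x), 59, 34 and 108 (1 mW, 4.2x) and 12, 7 and 58 (1 mW, 1x). Rpl37a gave 124, 119 and 163, then 57, 59 and 123, then 48, 32 and 96, and last 11, 8 and 52 in the same 4 time courses. Rpl13a, whose human counterpart is known for repressing inflammatory mRNAs, gave 93, 104 and 129 (2.6 mW, 4.2x), 62, 42 and 100 (2.6 mW, 1x), 34, 23 and 79 (1 mW, 4.2x) and 10, 5 and 50 (1 mW, 1x). In all 3 genes the 4.2x value exceeded the 1x value at each matched time and laser power, and 680 s was the highest time of every course.

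Rpl8 and Rpl4 had a steeper time course with weak light, as the median gene did. Rpl8, a protein close to the peptidyl transferase centre, had 65, 65 and 116 at 30, 180 and 680 s (2.6 mW, 4.2x) and 24, 24 and 88 (2.6 mW, 1x), but 7, 7 and 64 (1 mW, 4.2x) and 3, 3 and 33 (1 mW, 1x). Rpl4, which lines the exit tunnel, had 48, 55 and 77 (2.6 mW, 4.2x) and 34, 31 and 65 (2.6 mW, 1x), against 3, 4 and 47 (1 mW, 4.2x) and 2, 2 and 28 (1 mW, 1x). At 30 s with 1 mW and 4.2x Dazl, Rpl4 had 6.38% and Rpl8 10.94% of the 680 s value, against a median of 50.0% over all genes. With 2.6 mW and 4.2x that median was 68.85%. Rps27l (3.23%), Etf1 (11.11%) and Rpl7a (13.89%) were also low with 1 mW and 4.2x. Neither Rpl4 nor Rpl8 passed the test of laser power by time given below.

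Rpl3l, the paralog of Rpl3 that is known from striated muscle, was the lowest of the 29, with 7 at each time (2.6 mW, 4.2x), 3, 3 and 6 (2.6 mW, 1x), 2, 3 and 4 (1 mW, 4.2x) and 1, 1 and 2 (1 mW, 1x). Its 0.226 per listed nt stood 2647th of 3203 genes. The remaining large subunit genes averaged, per listed nt, 1.19 (Rpl34), 1.03 (Rpl13), 0.755 (Rpl37), 0.724 (Rpl3), 0.706 (Rpl35a), 0.506 (Rpl7a) and 0.422 (Rpl23a). Rpl34 was the one large subunit gene with a higher value at 30 s than at 680 s in any course, 30 against 25 with 1 mW and 4.2x Dazl. Ribosomal proteins and Eef1a1 have many near-identical pseudogene copies, and the sources used here do not say how reads with several matches were placed, so their values are uncertain.

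Of the small subunit genes, Rps3 had 253, 276 and 366 at 30, 180 and 680 s (2.6 mW, 4.2x), 164, 176 and 309 (2.6 mW, 1x), 118, 75 and 218 (1 mW, 4.2x) and 11, 11 and 115 (1 mW, 1x). Rps16 had 35, 49 and 80 (2.6 mW, 4.2x), 31, 30 and 66 (2.6 mW, 1x), 19, 11 and 58 (1 mW, 4.2x) and 2, 2 and 23 (1 mW, 1x). Both were higher at 4.2x than at 1x Dazl in all 6 matched pairs.

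Rps27l, a paralog of Rps27 known as a target of p53, had 7, 24 and 41 (2.6 mW, 4.2x), 7, 13 and 37 (2.6 mW, 1x), 1, 1 and 31 (1 mW, 4.2x) and 1, 1 and 16 (1 mW, 1x). Its 4.2x and 1x libraries were equal at 30 s with both laser powers and at 180 s with 1 mW, and its 680 s values were above all earlier ones, except that the 24 of 180 s (2.6 mW, 4.2x) exceeded the 16 of 680 s (1 mW, 1x). Rpsa, also known as the laminin receptor, had 21, 27 and 38 (2.6 mW, 4.2x), 5, 8 and 28 (2.6 mW, 1x), 6, 6 and 22 (1 mW, 4.2x) and 2, 2 and 13 (1 mW, 1x). Rps12 had 44, 48 and 67 (2.6 mW, 4.2x), 33, 25 and 50 (2.6 mW, 1x), 18, 13 and 32 (1 mW, 4.2x) and 7, 4 and 18 (1 mW, 1x). It kept the largest early share of the 5 in the 3 weaker courses. Per listed nt the small subunit genes averaged 0.995 (Rps16), 0.932 (Rps3), 0.882 (Rps27l), 0.587 (Rps12) and 0.436 (Rpsa).

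Initiation factors included Eif1a, a paralog of the scanning factor encoded by Eif1ax. It had 164, 171 and 254 at 30, 180 and 680 s (2.6 mW, 4.2x), 71, 72 and 204 (2.6 mW, 1x), 55, 48 and 155 (1 mW, 4.2x) and 9, 9 and 98 (1 mW, 1x). Eif3c, a core subunit of the eIF3 complex that holds the small subunit, had 43, 36 and 43 (2.6 mW, 4.2x), 23, 19 and 31 (2.6 mW, 1x), 34, 12 and 27 (1 mW, 4.2x) and 3, 2 and 20 (1 mW, 1x). At 4.2x Dazl its 30 s value was thus equal to the 680 s value with 2.6 mW and above it with 1 mW. Its single region gave 1.44 per listed nt, the 49th highest of the 3203 genes.

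Eif3h, another eIF3 subunit, had 67, 65 and 67 (2.6 mW, 4.2x), 45, 37 and 57 (2.6 mW, 1x), 27, 19 and 34 (1 mW, 4.2x) and 2, 2 and 19 (1 mW, 1x). Eif3d, the eIF3 subunit known to bind the cap of some mRNAs, ran otherwise, with 11, 37 and 53 (2.6 mW, 4.2x), 3, 2 and 35 (2.6 mW, 1x), 9, 10 and 24 (1 mW, 4.2x) and 4, 2 and 8 (1 mW, 1x). At 1x Dazl and 30 s it was no higher with 2.6 mW than with 1 mW, unlike Eif3c and Eif3h. Eif2s2, the beta subunit of the factor that carries the initiator tRNA, had values between 3 and 60 with 2.6 mW and between 2 and 37 with 1 mW. Eif5, which triggers the GTPase of that factor, had values between 26 and 58 with 2.6 mW and between 2 and 37 with 1 mW.

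Of the elongation factors, Eef2 had 157, 169 and 263 at 30, 180 and 680 s (2.6 mW, 4.2x), 77, 74 and 210 (2.6 mW, 1x), 63, 36 and 177 (1 mW, 4.2x) and 16, 8 and 56 (1 mW, 1x). Eef1a1, which delivers aminoacyl-tRNA, had 51, 57 and 130 (2.6 mW, 4.2x), 10, 9 and 105 (2.6 mW, 1x), 19, 9 and 88 (1 mW, 4.2x) and 3, 3 and 29 (1 mW, 1x). In Eef1a1 the 680 s libraries of 3 courses exceeded every 30 and 180 s library. Eif5a, the hypusine-bearing factor that helps stalled ribosomes on, had 79, 92 and 120 (2.6 mW, 4.2x), 58, 41 and 109 (2.6 mW, 1x), 27, 26 and 73 (1 mW, 4.2x) and 9, 5 and 51 (1 mW, 1x).

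Etf1, the release factor eRF1 that reads stop codons, had 20, 23 and 31 (2.6 mW, 4.2x), 15, 7 and 20 (2.6 mW, 1x), 2, 1 and 18 (1 mW, 4.2x) and 3, 1 and 12 (1 mW, 1x). At 1 mW its early values were as low at 4.2x as at 1x Dazl. Per listed nt the factors averaged between 0.652 (Eif2s2) and 1.44 (Eif3c). The ranges of the 3 classes per listed nt overlapped.

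**Figure D2:**
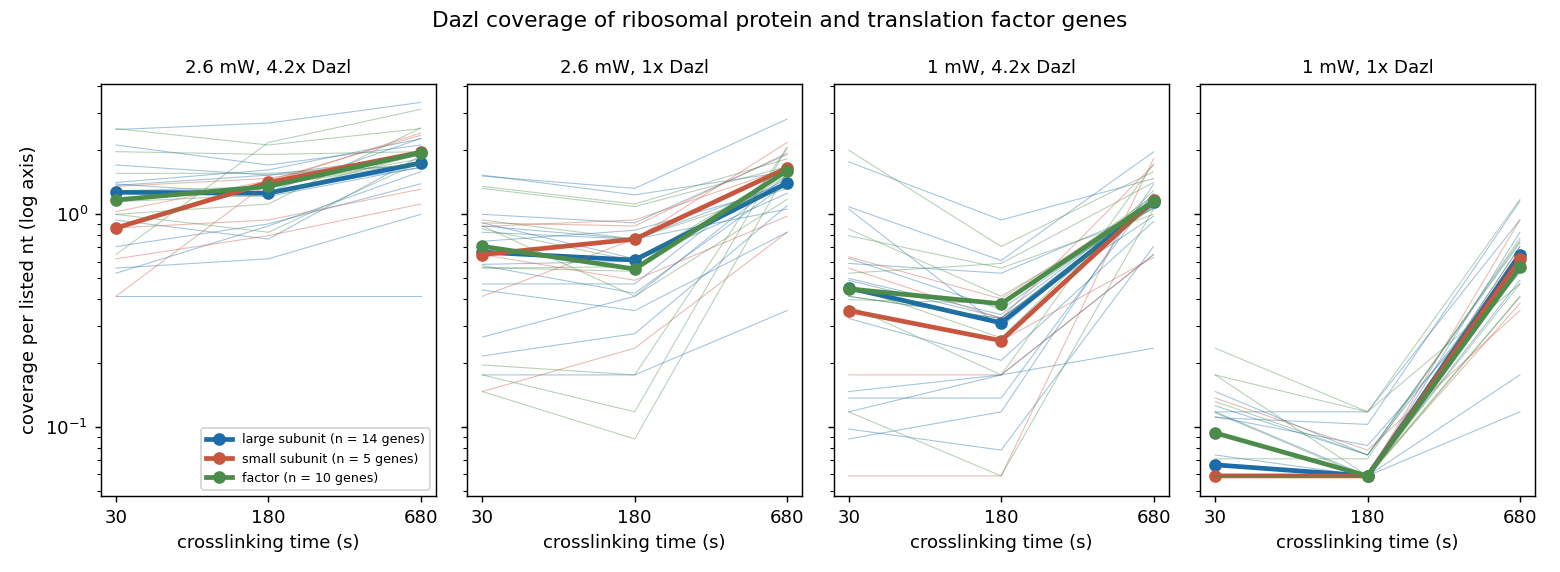
Coverage per listed nt (log axis) against crosslinking time for each of the 29 genes (thin lines), with the median of each class (thick lines and points), in 4 panels for 4.2x and 1x Dazl at each laser power. The 3 medians run close together in all panels, and the lowest values are those of 30 and 180 s at 1 mW and 1x Dazl.

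At the weakest conditions most regions stood at the lowest value any region had. With 1 mW and 1x Dazl, 59 of the 79 regions had a value of 1 at 30 s (74.68%, against 74.05% of all regions). At 180 s 64 did (81.01%, against 80.46% of all regions). None did at 680 s, where 7.99% of all regions did. How far below 1 such a region lay cannot be told, so a fold change against these libraries may be too small.

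The comparison of Dazl levels asks how coverage changed when the cells held more of the protein. Of the 29 genes, 26 rose at 4.2x over 1x Dazl (limma on log2(value + 3), additive in time, laser power and Dazl, Benjamini-Hochberg adjusted p under 0.05 over all genes), where 82.4% of all genes tested were higher. The exceptions were Rpl4 (log2 change 0.48 ± 0.30 SE, adjusted p = 0.125), Rps27l (0.29 ± 0.27, 0.302) and Etf1 (0.42 ± 0.27, 0.139), of which Rpl4 was higher in 6 of 6 matched pairs of libraries, Etf1 in 4 and Rps27l in 3.

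The median log2 change per gene was 1.28 in factors, 0.95 in the 14 large subunit genes and 0.96 in the 5 small subunit genes, against 0.88 for all genes. Summed coverage did not order the classes the same way in every pair of libraries. The factors had the highest ratio of 4.2x over 1x Dazl in 3 of 6 pairs, the small subunit genes in 2 and the large subunit genes in 1. Because genes with more coverage tended to have larger Dazl changes, each gene was also set beside the 50 other genes nearest to it in mean coverage. Of the factors, 8 of 10 lay above the median of their near genes, against 4 of 14 large and 2 of 5 small subunit genes. The largest changes were those of Eef1a1 (1.51 ± 0.30, adjusted p = 4.52e-05) and Eif2s2 (1.51 ± 0.29, 2.01e-05), 2.85-fold and 2.84-fold on the scale with 3 added, both in 6 of 6 pairs. Their near genes had medians of 1.09 and 0.92. Eif3d rose by 1.37 ± 0.28 (adjusted p = 7.2e-05), Rplp0 by 1.34 ± 0.38 (0.00177), Rps3 by 1.33 ± 0.38 (0.00189) and Rpl34 by 1.32 ± 0.29 (0.00015). The difference between factors and ribosomal proteins has no p here, since genes of 1 set of libraries are not replicates.

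The ratio of Dazl levels was smallest at 680 s. Summed over the 29 genes, coverage at 30 s with 1 mW was 825 at 4.2x and 145 at 1x Dazl, a ratio of 5.69. At 180 s the ratio was 4.87, and at 680 s it was 1.89. With 2.6 mW the ratios were 1.80, 2.08 and 1.24 at 30, 180 and 680 s. Library totals had ratios of 5.0, 4.29 and 1.94 with 1 mW, and of 1.89, 2.16 and 1.24 with 2.6 mW. Without the 30 s libraries 7 of the 29 were called, and without the 180 s libraries 16 were, while 26 were without the 680 s libraries. Fewer of all genes were called too in each of these fits than with all 12 libraries, and fewest without the 30 s libraries. Drops were thus not limited to the 29, but they differed in size. Without the 30 s libraries a smaller share of the 29 than of all genes was called. Without the 180 s or the 680 s libraries, as with all 12, the share was larger in the 29. The median log2 change of the 29 was 0.91, 0.95 and 1.34 in these fits of 8 libraries each, against 1.05 with all 12. The median SE was 0.41, 0.41 and 0.28, against 0.30, so fewer calls came with larger errors and slightly smaller changes.

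The comparison of laser powers asks how coverage followed the intensity of the light. All 29 genes rose at 2.6 over 1 mW (limma, Benjamini-Hochberg adjusted p under 0.05), where 93.4% of all genes tested were higher. The median log2 change was 1.62 in large subunit genes, 1.50 in small subunit genes and 1.57 in factors, against 1.22 over all genes. Against their near genes, 9 of 14 large subunit genes, 3 of 5 small subunit genes and 5 of 10 factors were above.

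Rpl4 had the largest laser change, 2.27 ± 0.30 (4.81-fold, adjusted p = 3.31e-09), beside a median of 1.53 in its near genes. Next came Rps3 (2.05 ± 0.38, 2.12e-06), Rplp0 (2.03 ± 0.38, 2.48e-06), Rpl8 (2.01 ± 0.30, 5.22e-08) and Eif3h (1.91 ± 0.31, 2.24e-07), each higher in 6 of 6 matched pairs. The smallest were those of Rpl3l (0.71 ± 0.13, adjusted p = 2.1e-06) and Eif3d (0.74 ± 0.28, 0.0115). Eif3d was higher in 4 of 6 pairs, the fewest of the 29, and Rpl37 in 5. The call of Eif3d was kept under 16 of 22 alternatives, and was lost when the library of 680 s (1 mW, 4.2x), 680 s (2.6 mW, 1x) or 180 s (2.6 mW, 4.2x) was left out. Rpl34, Rpl37 and Eif2s2, with 0.90, 0.91 and 0.91, were also below the median of all genes, as were Rpsa (1.11), Rpl35a (1.15) and Eif3c (1.19).

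The comparison of times asks how far coverage went on accumulating after 30 s. At 680 over 30 s, 23 of the 29 genes rose (limma, Benjamini-Hochberg adjusted p under 0.05), where 73% of all genes tested were higher. The other 6 were Eif3c (0.51 ± 0.37, adjusted p = 0.193), Rpl13 (0.58 ± 0.35, 0.119), Rpl34 (0.59 ± 0.36, 0.121), Eif5 (0.67 ± 0.37, 0.0941), Eif3h (0.69 ± 0.38, 0.0936) and Rps12 (0.73 ± 0.36, 0.0599). Their values at 680 s were higher than at 30 s in 2 to 4 of the 4 courses. With 2.6 mW and 4.2x Dazl, Eif3c, Eif3h, Rpl13 and Rpl34 had the same value at 30 and 680 s, as did 25.41% of all genes, while Eif5 had 91.38% and Rps12 65.67% of its 680 s value at 30 s. The library of 680 s with 1 mW and 4.2x Dazl weighed most on the count, which was 14 of 29 without it. Fewer of all genes were called without that library too, so a drop was not limited to the 29. It was larger in the 29, whose share called was above that of all genes with every library and below it without this one.

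The largest changes with time were those of Rps27l (2.37 ± 0.33, 5.16-fold, adjusted p = 1.5e-09), Eef1a1 (2.20 ± 0.37, 4.61-fold, 2.64e-07) and Rpl8 (1.97 ± 0.37, 3.92-fold, 4.06e-06), each higher in 4 of 4 courses. Rpl7a (1.88 ± 0.35), Rpl4 (1.80 ± 0.37), Rpl35a (1.70 ± 0.35), Eif2s2 (1.69 ± 0.35), Eif1a (1.66 ± 0.43) and Eif3d (1.62 ± 0.35) followed, with adjusted p between 4.06e-06 and 0.000772. Rpl3l had the smallest change, 0.35 ± 0.16 (adjusted p = 0.0467), and its call was kept under 9 of 20 alternatives. It was lost on leaving out any of the 3 libraries of 1 mW and 1x Dazl, or any 1 of the 30 and 680 s libraries of 1 mW and 4.2x or of 2.6 mW and 1x. Class medians were 1.09 in large subunit genes, 1.47 in small subunit genes and 1.28 in factors, against 1.03 over all genes. Above their near genes were 9 of 14 large subunit genes, 4 of 5 small subunit genes and 7 of 10 factors.

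Between 30 and 180 s no gene passed the test. At 180 over 30 s, 0 of the 29 genes and 0% of all genes tested passed (limma, Benjamini-Hochberg adjusted), and at an unadjusted p under 0.05 it was 0 of the 29 and 5 of all genes. Values at 180 s were lower than at 30 s in 22 of the 29 genes with 1 mW and 4.2x Dazl (65.16% of all genes). They were lower in 19 with 2.6 mW and 1x (48.52%), in 12 with 1 mW and 1x (27.41%), and in 8 with 2.6 mW and 4.2x (30.38%). In the last of these courses 18 of the 29, and 1639 of all 3203 genes, were higher at 180 s. The sum over the 29 genes was 2043 at 30 s and 2187 at 180 s there. Rplp0 with 1 mW and 4.2x Dazl, at 127 and 71, is an example of the lower value at 180 s. The library totals moved the same way in that course, with 74552 at 30 s and 48334 at 180 s.

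**Figure D3:**
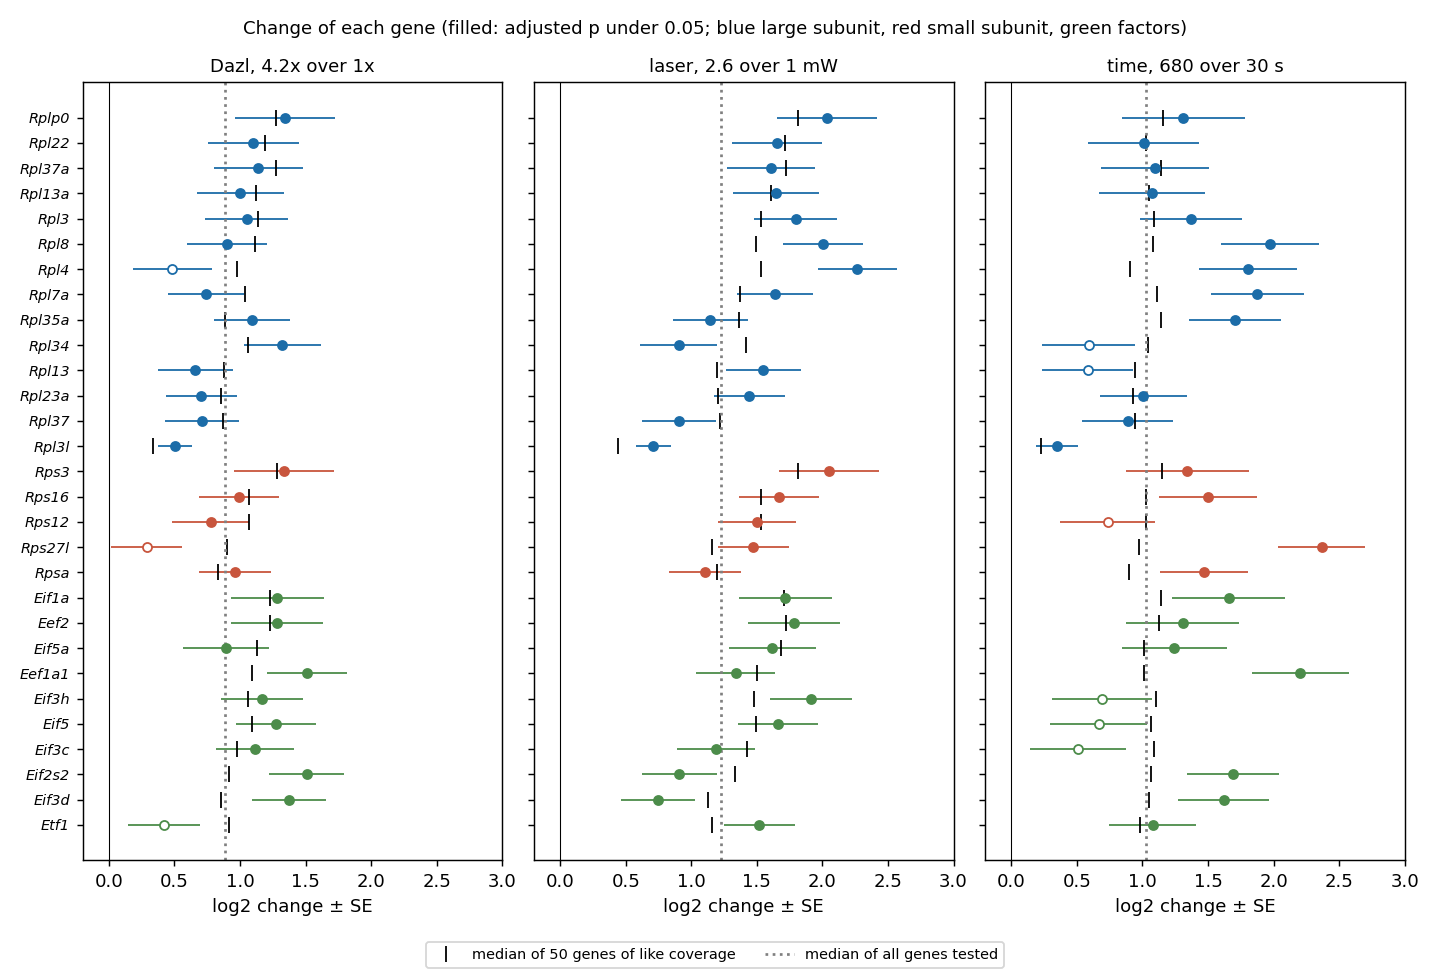
Log2 change ± SE (limma on log2(value + 3)) of each of the 29 genes for 4.2x over 1x Dazl, 2.6 over 1 mW and 680 over 30 s, with filled points for an adjusted p under 0.05. Black ticks are the median of the 50 genes nearest in coverage and the dotted line is the median of all 3203 genes. Eef1a1, Rps27l and Rpl8 stand to the right of their ticks for time, and Eif2s2, Eif3d and Eef1a1 do for Dazl.

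To ask which genes departed from the median gene, each library was divided by its median ratio to the geometric mean over libraries. On this scale 3 of the 29 genes rose at 680 over 30 s, where 9.52% of all genes tested were higher (limma, Benjamini-Hochberg adjusted p under 0.05). They were Rps27l (1.41 ± 0.30, adjusted p = 0.0063), Eef1a1 (1.07 ± 0.24, 0.00952) and Rpl8 (0.86 ± 0.24, 0.0272), 1 of each class. At an unadjusted p under 0.05 there were 10 of the 29, beside 868 of all 3203 genes. Of the 10, Rps12 (-0.44) and Eif3c (-0.55) were lower than the median gene. The call of Rpl8 was lost when 1 of 4 libraries was left out, at 680 s (1 mW, 1x), 30 s (1 mW, 4.2x), 680 s (1 mW, 4.2x) or 30 s (2.6 mW, 1x), with adjusted p between 0.0732 and 0.123. It was also lost with a minimum mean value of 10 (adjusted p = 0.0581), and with time as a slope the calls of both Rpl8 (0.0563) and Eef1a1 (0.0508) were lost. That of Rps27l was kept under every alternative run.

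For 4.2x over 1x Dazl, 0 of the 29 genes passed on scaled libraries, and 0% of all genes did. At an unadjusted p under 0.05 there were 2 of the 29, Eef1a1 (0.51 ± 0.20) and Eif2s2 (0.61 ± 0.24), both with an adjusted p of 0.253. Of all 3203 genes, 578 were at that unadjusted p. For 2.6 over 1 mW, 0 of the 29 and 0% of all genes passed, with 6 of the 29 at an unadjusted p under 0.05: Rpl4 (1.00 ± 0.25, adjusted p = 0.121), Rpl8, Rplp0, Rpl3, Rps3 and Eif3h. Here 934 of all 3203 genes were at that unadjusted p. Where single libraries were left out, Rpl4 was called for laser power when the library of 680 s (1 mW, 4.2x Dazl) was missing, and Rpl4 and Rpl8 when that of 680 s (2.6 mW, 4.2x) was. Genes outside the 29 were called in both fits too. Counting either direction, the share called was larger in the 29 than over all genes in the fit with Rpl4 alone. It was smaller in the fit with Rpl4 and Rpl8, where most genes called were lower at 2.6 mW.

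Whether 1 factor of the design changed the effect of another was tested with interaction terms on the values as deposited. For the Dazl change at 680 minus 30 s, 0 of the 29 genes and 0% of all genes passed. Rpl34 and Eif2s2 were at an unadjusted p under 0.05, beside 224 of all 3203 genes. For the laser change at 680 minus 30 s it was again 0 of the 29 and 0% of all genes. Rpl4 (-2.08 ± 0.61, adjusted p = 0.436) and Rpl8 (-1.38 ± 0.64, 0.712) were the 2 at an unadjusted p under 0.05, in both of which the laser change was smaller at 680 s. Of all 3203 genes, 185 were at that unadjusted p, and the median difference over all genes was -0.29. For the Dazl change at 2.6 minus 1 mW, 0 of the 29 passed, where 0.0312% of all genes did. Here 6 were at an unadjusted p under 0.05, and all had a smaller Dazl change with 2.6 mW: Rps3 (-1.67), Rplp0 (-1.37), Rpl37 (-1.36), Eif3h (-1.31), Rps16 (-1.26) and Eif5 (-1.24), with adjusted p between 0.236 and 0.322. Of all 3203 genes, 486 were at that unadjusted p, and the median difference over all genes was -0.26. With the library of 680 s (1 mW, 1x Dazl) left out, 12 of the 29 passed in this test. In that fit 60 of all 3203 genes passed with a larger and 800 with a smaller Dazl change at 2.6 mW.

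Within a gene, regions could differ widely in how early they filled. With 2.6 mW and 4.2x Dazl, 36 of the 79 regions had the same value at 30 and 680 s (45.57%, against 45.49% of all regions), and 16 had at most 25% of the 680 s value at 30 s (20.25%, against 16.89% of all regions). Both kinds occurred in the same gene.

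Eef1a1 had its early region at 78481331 to 78481347 of chromosome 9, with 32, 25 and 32 at 30, 180 and 680 s. A second region of the gene at 78481391 to 78481407, 60 nt further upstream on the gene's strand, had 2, 1 and 35. In Rpl35a, the region at 33057193 to 33057209 of chromosome 16 had 30, 24 and 30, and that at 33057318 to 33057334 had 2, 2 and 34. Rpl8 had 36, 35 and 36 at 76904871 to 76904887 of chromosome 15, and 2, 2 and 41 at 76904171 to 76904187. The late regions reached values at 680 s no lower than those of their early neighbours, so in these 3 genes the level at 680 s did not mark which region was early.

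Eif2s2 showed the same contrast with 33, 27 and 33 at 154884368 to 154884384 of chromosome 2 and 1, 1 and 27 at 154877706 to 154877722. In Eef2 the region at 81177716 to 81177732 of chromosome 10 had 50, 40 and 50, and that at 81179166 to 81179182 had 2, 2 and 42. Among snoRNA regions, the Snord15b regions of Rps3 both had 32 at each time, while the LOC115487513 region of Rps12 had 2, 7 and 25. Single regions have no replicate, and these pairs were picked after their values were seen.

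**Figure D4:**
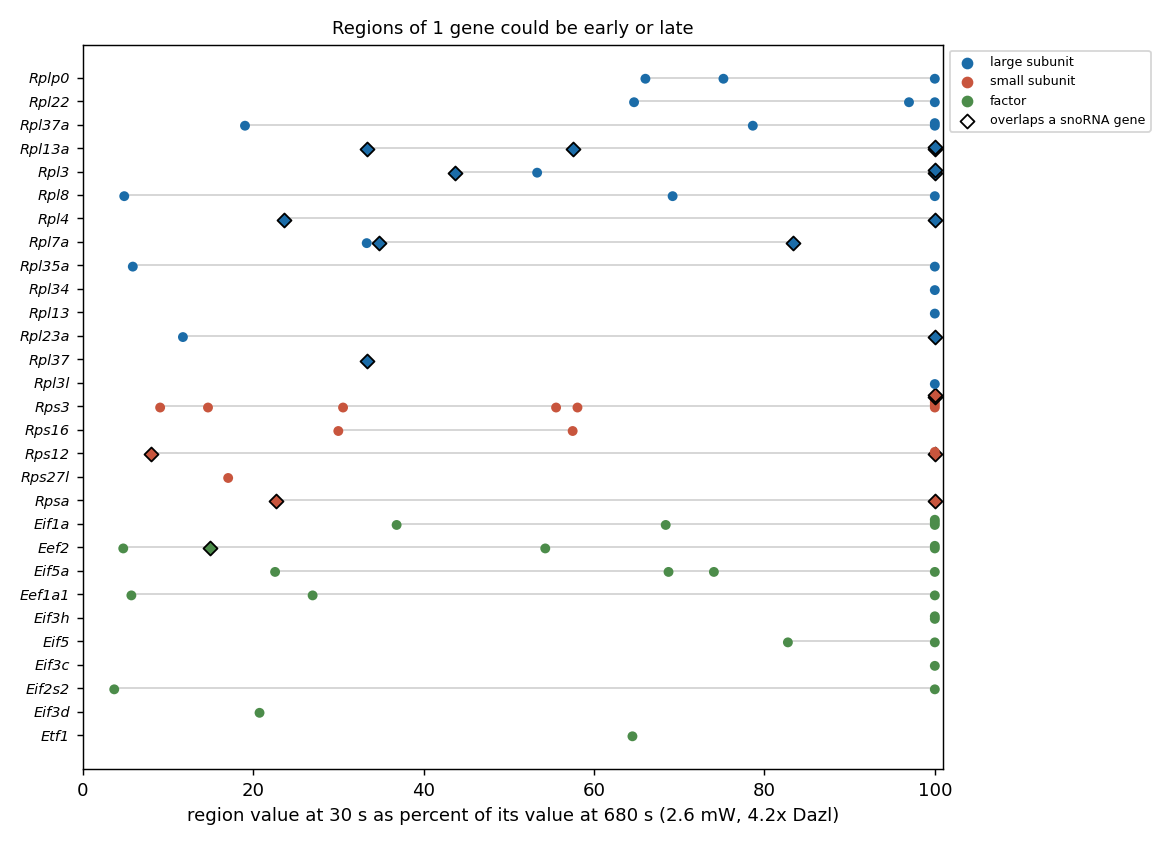
Value of each of the 79 regions at 30 s as percent of its value at 680 s, with 2.6 mW and 4.2x Dazl, by gene. Diamonds with a black edge overlap a snoRNA gene, marks of equal value are stacked, and a grey line joins the lowest and highest region of a gene. Eef1a1, Rpl8, Rpl35a, Eif2s2, Rps3, Rps12 and Eef2 each hold a region at 100% and another below 10%.

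Summed per gene, the share of the 680 s value present at 30 s with 2.6 mW and 4.2x Dazl had a median of 71.89% in large subunit genes, 55.26% in small subunit genes and 64.54% in factors. Over all genes it was 68.85%. Small subunit genes ran between 17.07% (Rps27l) and 69.13% (Rps3), and 0 of 5 lay above the median of its near genes. Large subunit genes ran between 33.33% (Rpl37) and 100.0% (Rpl13, Rpl34 and Rpl3l), with 4 of 14 above. Factors ran between 20.75% (Eif3d) and 100.0% (Eif3c and Eif3h), with 3 of 10 above. With 2.6 mW and 1x Dazl the order of the classes was different, with 52.94% in large subunit genes, 46.97% in small subunit genes and 44.94% in factors, against 45.95% over all genes. With 1 mW and 4.2x Dazl the medians were 46.52%, 32.76% and 37.24% in that order of classes, against 50.0% over all genes. With 1 mW and 1x Dazl they were 12.66%, 9.57% and 14.64%, against 18.18% over all genes, so no order of the classes held in all 4 courses.

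The members are a small part of the translation machinery as listed by name. Of 51 large subunit genes 14 had a region, and of 49 factors outside the cap-binding complex 11. Genes outside the 29 with a region included Rps3a1, a small subunit protein, and Eef1e1, an accessory protein of the tRNA synthetase complex. Eef1e1 had 102, 103 and 114 at 30, 180 and 680 s (2.6 mW, 4.2x), and rose with Dazl by 1.20 ± 0.33 (limma, adjusted p = 0.0012). Rps3a1 had 2, 3 and 6 in those libraries and rose by 0.23 ± 0.11 (limma, adjusted p = 0.0483). A gene with no region is one for which no coverage was listed in the files used here, which does not show that Dazl was not linked to it.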

How the data were processed

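Dazl-linked RNA was measured in 12 KIN-CLIP libraries of 1 monoclonal GC-1 spg line, 1 library per condition. The deposited values are a score that the authors call normalized coverage: whole numbers per interval, with no strand. FastQC, Bowtie2 and the mm10 build are named per the submitters' processing notes. How reads were counted, normalized and selected is, in the sources used here, not given, so the depth in reads is unknown and no counting interval is given.

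Listed intervals were joined into a region where a gap, in any library, was at most 10 nt, and width times value was summed per region and per gene (RefSeq spans of GRCm38.p6; regions in 1 gene, or in 1 protein-coding gene among several). No genome was used, so no region sequence is shown. Genes were tested with limma 3.58.1 (R 4.3.3) on log2(value + 3), two-sided, with time, laser power and Dazl level as terms, eBayes with trend and robust settings, and Benjamini-Hochberg adjustment over 3203 genes. The fit had 7 residual degrees of freedom, to which eBayes added a median of 107.09 (11.5 on scaled libraries), so p-values rest mostly on spread pooled over genes. Combinations of conditions stand in for replicates. The procedure was tested on simulated data. Alternatives were other pseudocounts, gaps, filters, scalings, a time slope, only regions in 1 gene, and single libraries or times left out. 1 result on a gene outside the 29 is not reported here. The members and lists were chosen with earlier results of these data known. Every member is named, and values in every library are given for the 4 large subunit, 2 small subunit and 4 factor genes of highest mean value, those called on scaled libraries, and the highest and lowest of each class per comparison.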

Additional observations from a re-analysis of the deposited data

How the results depend on the processing

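The count of the 29 genes that rose at 4.2x Dazl was 26, and it was 7 without the 30 s libraries and 16 without the 180 s libraries. The count over all genes fell in both of these fits as well. The share called was smaller in the 29 than over all genes without the 30 s libraries, and larger without the 180 s libraries. For 680 over 30 s the count of the 29 was 23, between 14 and 28 when 1 library at a time was left out, and 12 with time as a slope on log2 seconds. In the time fits with 14 and with 12, the count over all genes was lower too. The share called was smaller in the 29 than over all genes in the fit with 14, and larger in the fit with 12. On scaled libraries the time count was 3, and it was 1 with the slope, 5 with scaling by the library total and 6 with cyclic loess. Counting either direction, the share called was smaller in the 29 than over all genes with the slope and with cyclic loess. It was larger in the 29 with scaling by the library total. The scaled laser count was 0, between 0 and 2 with 1 library left out, and 1 without all 680 s libraries. Genes outside the 29 were called too wherever this count was above 0. In the fit with 2 and in that without all 680 s libraries, the share called in either direction was smaller in the 29 than over all genes. The Dazl by laser count was 0, and between 0 and 12 with 1 library left out. In the fit with 12, 60 of all 3203 genes passed upward and 800 downward. The other counts stayed within 1.5 times under the alternatives run. Of the genes called, 7 of 26 for Dazl, 26 of 29 for laser power and 12 of 23 for time were called under every alternative. With only regions in 1 gene, which leaves 25 of the 29 genes, the time change of Rps12 was -0.0482 (adjusted p = 0.895), against 0.73 with all its regions, and this setting removes the regions shared with snoRNA genes. The causes of the other changes were not tested. No paired analysis was possible by replicate number, because the labels give none. Matched pairs here are libraries that share the other 2 conditions, which the additive model holds as terms. With the depth in reads unknown, how far counting error limits the low values cannot be given.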
